A study of Homo sapiens with 79 samples.

Results

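Nuclear pore protein NUP98 was 1 of 24 proteins whose bound RNA was profiled in K562 cells by formaldehyde RNA immunoprecipitation sequencing (fRIP-seq). The 3 NUP98 fRIP libraries and the 3 libraries of input set 2, the set nearest to them, are 6 of the 79 libraries of the series and are described here. K562 is an established leukemia line that carries the BCR-ABL1 fusion and expresses fetal and embryonic globins. Cells were lightly fixed with formaldehyde, lysed and sonicated, and RNA that came down with a commercial NUP98 antibody (Cell Signaling) was sequenced after ribosomal RNA depletion. Input is RNA of the same kind of lysate with no antibody. All groups are unmodified K562 cells, the 3 NUP98 replicates come from different lysates, and no library with a control antibody was analysed here. Each comparison with input therefore contrasts an antibody pulldown with whole lysate RNA, and 1 antibody and 1 cell line stand for the protein.

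NUP98 is a nucleoporin whose phenylalanine-glycine repeats line the transport channel of the nuclear pore. It is made from a precursor that cleaves itself and also yields NUP96, it holds the mRNA export factor RAE1 through a short binding motif, and it moves on and off the pore. A part of it sits in the nucleoplasm, where it has been found at active genes, and fusions of its repeats to homeodomain or chromatin proteins cause leukemias. The question of this comparison is which RNAs are richer or poorer in the NUP98 pulldown than in lysate RNA.

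The values are FPKM, fragments per kilobase of transcript scaled to the number of mapped fragments, estimated by the authors for each gene and isoform of GENCODE v18 on hg19. Input set 2 was taken as the partner because the pooled input value that the authors set beside NUP98 lay a median of 0.000752 log2 units from the mean of set 2 across genes of at least 10 FPKM with medians aligned, against 0.260 for set 1 and 0.138 for set 3. From the smallest steps in the values, the NUP98 libraries hold about 11200000, 12300000 and 10700000 fragments and the inputs between 25500000 and 28700000, so a low value is less exact in the NUP98 libraries. Between 13992 and 14855 genes reached 1 FPKM in a NUP98 library and between 15846 and 16482 in an input. On the log2 scale the NUP98 libraries correlated with each other at a Pearson r of 0.945 to 0.967 across genes, the inputs at 0.953 to 0.983, and a NUP98 library with an input at 0.921 to 0.953. For some genes replicate 3 stood apart in both groups. DDIT4, a stress-response gene, had 641, 674 and 59.8 FPKM in the NUP98 libraries and 319, 341 and 31.3 FPKM in the inputs of the same numbers. The replicate number therefore entered the fit as a block.

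Of 10 markers of K562 cells, all 10 reached 1 FPKM in all 6 libraries. Of 11 markers of other blood cells and tissues, 8 stayed under 1 FPKM in all 6 libraries, among them the B cell gene MS4A1 and the liver gene ALB, and EPCAM and CD3D were above it in all 6. The summed level of these 11 genes was 47.9 to 61.2 FPKM in the NUP98 libraries and 74.4 to 77.7 FPKM in the inputs, nearly all of it from EPCAM and CD3D.

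A gene was tested where at least 2 of the 6 libraries reached 1 FPKM, which 16923 of 48453 genes did. The test was limma's on log2(FPKM + 1), which understates the change of low genes, and a gene was called at a Benjamini-Hochberg adjusted p under 0.05. In the NUP98 fRIP 1551 genes were higher than in input, 9.17% of those tested, and 2986 were lower, 17.6%. Changes over 2-fold were one-sided: 34 genes rose past it (0.201%) and 982 fell past it (5.80%). With each library centred on its median the calls were 1398 higher (8.26%) and 3254 lower (19.2%), and the median change of all genes was -0.06 as deposited and -0.09 centred. The block carries many of these calls. Without it 116 genes were higher and 895 lower, all of them also called in the same direction with it. The 3 NUP98 libraries lay above all inputs for 1556 genes (9.19%) and below all inputs for 3427 (20.3%). With 3 libraries against 3, an exact permutation test of a single gene cannot give a p under 0.10.

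Among 11331 protein-coding genes (mRNA) 1408 rose and 1298 fell, with a median log2 change of 0.02. Centring turned this balance to 1268 higher and 1462 lower, and without the block it was 101 and 179. Among 2492 long noncoding RNA (lncRNA) genes 73 rose and 645 fell, with a median of -0.31, and among 2377 pseudogenes 32 rose and 855 fell, with a median of -0.57. Of these lncRNAs and pseudogenes 236 and 393 were lower without the block, and 144 and 281 without replicate 1. The medians of the 3 library pairs were -0.31, -0.31 and -0.33 for lncRNA and -0.49, -0.53 and -0.61 for pseudogenes, so the 3 pairs lay close together. The contrast was also there at higher levels. Between 20 and 100 FPKM in input, 58 of 166 lncRNA genes and 56 of 96 pseudogenes were lower, against 554 of 4301 mRNAs. Among the 837 mRNAs over 100 FPKM, 356 were lower and 38 higher. Pseudogenes share sequence with their parent genes, so their values depend on how the authors' software divided fragments between copies.

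**Figure D1:**
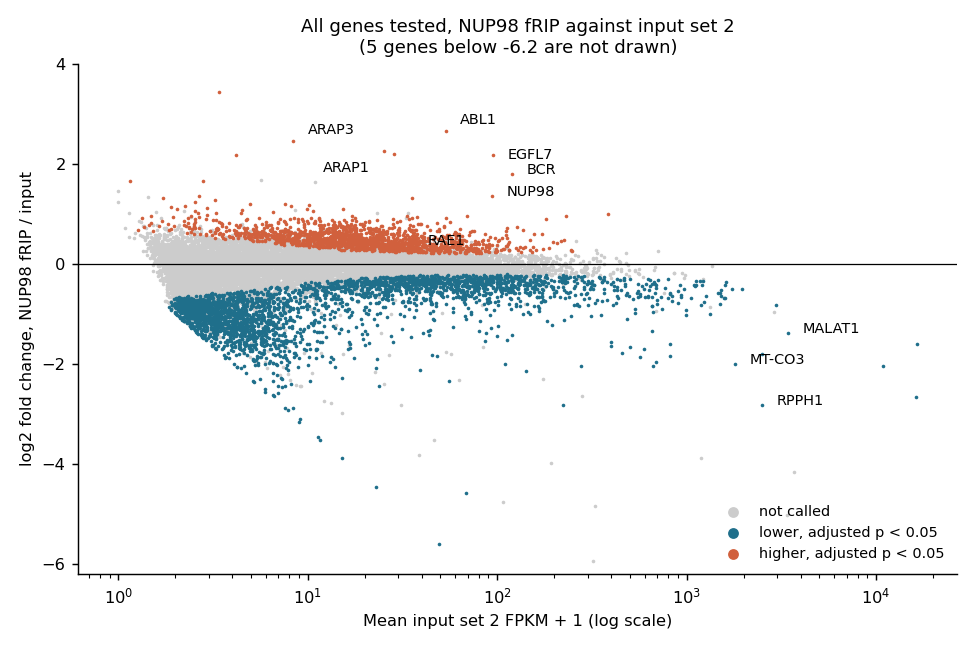
Log2 fold change of NUP98 fRIP over input set 2 (vertical axis) for the 16923 genes tested against mean input FPKM + 1 (horizontal axis, log scale), with orange points for the 1551 genes called higher, blue for the 2986 called lower and grey for the rest. ABL1, ARAP3, ARAP1, EGFL7 and BCR stand above the body of genes, RAE1 lies near 0, and MT-CO3, RPPH1 and MALAT1 lie among the abundant RNAs that were lower.

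The mRNA of NUP98 itself was among the strongest in the NUP98 pulldown. NUP98 (chr11:3692313-3819022, minus strand, hg19) had 191, 239 and 292 FPKM in the NUP98 libraries and 78.6, 93.6 and 106 FPKM in the inputs, so the lowest NUP98 library lay above the highest input. The change was 2.56-fold, a log2 of 1.36 ± 0.07 (SE), with an adjusted p of 0.0021 in limma with the block and 0.019 without it. Over all 9 inputs NUP98 mRNA was 87.9 ± 8.95 FPKM (SD, n = 9), and the exact two-sided permutation test of 3 against 9 libraries gave its smallest possible p of 0.00455. The gene overlaps CHRNA10 on its own strand and PGAP2 on the other. RAE1 mRNA, which encodes the export factor that NUP98 binds, was not called. It had 28.9, 39.8 and 41.3 FPKM in the NUP98 libraries and 29.5, 34.9 and 45.3 FPKM in the inputs, a log2 change of 0.01 ± 0.08 with an adjusted limma p of 0.95, and the groups overlapped.

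The isoform table shows which NUP98 transcripts carried the rise. NUP98-202, a coding transcript of 6731 bases and 32 exons, had 41.6, 44.8 and 47.1 FPKM in the NUP98 libraries against a mean of 9.92 FPKM in input, a log2 change of 2.06 ± 0.09 and an adjusted limma p of 0.032. NUP98-205, a shorter coding transcript of 3987 bases and 20 exons, had 40.3, 70.4 and 82.3 FPKM against a mean of 17.9 FPKM, a log2 change of 1.75 ± 0.11. The most abundant one, NUP98-201 with 33 exons, had a mean of 82.3 FPKM in NUP98 fRIP and 29.5 FPKM in input. The short transcript NUP98-208, annotated as a retained intron, went the other way, with 3.85 FPKM in NUP98 fRIP and 9.07 FPKM in input, a log2 change of -1.06 ± 0.17 that did not pass the test (adjusted limma p of 0.074). Isoforms of 1 gene share most of their bases, and the division between them is the authors' estimate.

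Both genes joined in the K562 translocation were enriched. ABL1 (chr9:133588430-133763062, plus strand), a tyrosine kinase, had 252, 312 and 477 FPKM in the NUP98 libraries and 46.7, 50.8 and 60.4 FPKM in the inputs, with no overlap. It rose 6.29-fold, a log2 of 2.65 ± 0.11 with an adjusted limma p of 0.0010. BCR (chr22:23521891-23660224, plus strand), its fusion partner, had 320, 389 and 561 FPKM in the NUP98 libraries and 99.0, 112 and 146 FPKM in the inputs, again apart, a log2 change of 1.80 ± 0.07 with an adjusted limma p of 0.0010. Replicate 3 was the highest of its group for both genes in both groups. The table gives each gene its own value and has no entry for the fused transcript, so fused and normal transcripts cannot be told apart. Both long coding isoforms of ABL1 rose: ABL1-201 had a mean of 290 FPKM against 35.5 FPKM, a log2 change of 2.95 ± 0.14, and ABL1-202 had 53.5 FPKM against 16.0 FPKM, a log2 change of 1.66 ± 0.10. For BCR the isoform BCR-202 with 22 exons had 187 FPKM against 45.1 FPKM and the short BCR-204 with 8 exons had 169 FPKM against 35.1 FPKM, log2 changes of 2.00 ± 0.11 and 2.20 ± 0.10. Of the 31-base words in the longest BCR transcript, 28.3% also occur in transcripts of other annotated genes, against 1.03% for ABL1, so the level of BCR is the less certain of the pair.

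ARAP1 and ARAP3, 2 related genes, were also at the upper end. They were picked by rank, and other genes of their family are not described here. ARAP1 and ARAP3 encode proteins that switch off small GTPases of the Arf family downstream of phosphoinositide lipids. ARAP3 (chr5:141032968-141061797, minus strand) had 30.3, 62.8 and 45.9 FPKM in the NUP98 libraries and 5.86, 7.23 and 9.10 FPKM in the inputs, a log2 change of 2.45 ± 0.17 with an adjusted limma p of 0.0053. ARAP1 (chr11:72396114-72504644, minus strand) had 105, 182 and 91.5 FPKM in the NUP98 libraries and 21.1, 27.6 and 24.5 FPKM in the inputs, a log2 change of 2.27 ± 0.15 with an adjusted limma p of 0.0052. In both genes every NUP98 library lay above every input, and replicate 2 was the highest NUP98 library. The coding isoforms ARAP1-204 and ARAP1-207 had log2 changes of 2.68 ± 0.23 and 2.69 ± 0.22 and ARAP3-201 of 2.70 ± 0.26. None passed the isoform test with the block (adjusted limma p of 0.065 for each), while the fit without it gave 0.033, 0.016 and 0.036. The lncRNA ARAP1-AS1, which lies on the other strand of ARAP1, rose alongside by 2.19 ± 0.16. Of its 31-base words 93.0% lie in ARAP1 transcripts, and nothing in the sources used here says that fragments were counted by strand, so ARAP1-AS1 cannot be told apart from ARAP1. In the longest ARAP1 transcript 23.1% of the 31-base words also occur in transcripts of other annotated genes, STARD10 first, against 0.0% for ARAP3. ARAP1 overlaps STARD10 on its own strand, so its level is less certain than that of ARAP3.

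EGFL7 (chr9:139553308-139567130, plus strand), a secreted factor of blood vessels and leukemia cells whose intron holds miR-126, had 420, 643 and 285 FPKM in the NUP98 libraries and 104, 91.7 and 86.5 FPKM in the inputs. The groups stood apart although the NUP98 libraries spread widely, and the log2 change was 2.17 ± 0.20 with an adjusted limma p of 0.0083. SEPHS2, which makes the selenium donor for selenoproteins, had 83.8, 70.1 and 112 FPKM against 33.4, 31.4 and 39.2 FPKM, a log2 change of 1.31 ± 0.08. EGFL7-204 with 10 exons was at 31.6 FPKM in input and 242 FPKM in NUP98 fRIP, and EGFL7-202 with 9 exons at 20.9 and 2.45 FPKM. Neither passed the isoform test with the block (adjusted limma p of 0.054 and 0.065), while the fit without it gave 0.032 and 0.0195. The remaining genes of the upper end by the naming rule were lower in level. SOCS3, a feedback inhibitor of cytokine signalling, rose from 8.89 ± 0.21 to 20.4 ± 2.45 FPKM (SD, n = 3), a log2 change of 1.10 ± 0.10. NFKBID, an inhibitor protein of the NF-kB family, rose from 3.97 to 10.4 FPKM. RP11-286N22.8 and the lncRNA CTD-2561B21.7 rose by 1.17 ± 0.15 and 1.17 ± 0.24 on the log2 scale. CTD-2561B21.7 shares 91.6% of its 31-base words with CHMP6 on the other strand, and RP11-286N22.8 runs across PPP1R32 and SDHAF2, so neither value can be given to that gene alone. CTD-2561B21.7 was no longer called without replicate 3 (adjusted limma p of 0.067), while ABL1, ARAP3, ARAP1, EGFL7, BCR, SEPHS2, NFKBID, RP11-286N22.8, SOCS3 and NUP98 were called whichever replicate was left out. Without the block RP11-286N22.8 was not called (adjusted limma p of 0.053).

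**Figure D2:**
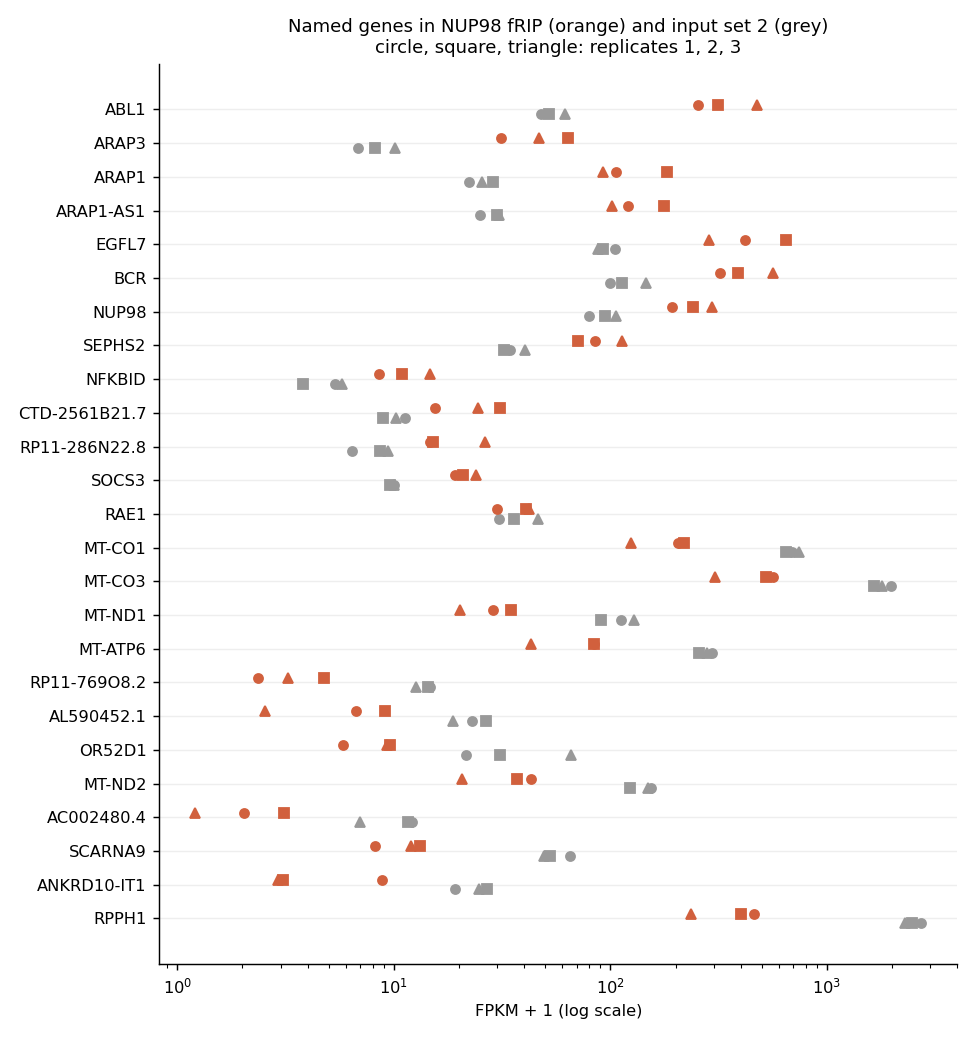
FPKM + 1 on a log scale (horizontal axis) of the named genes (vertical axis) in the 3 NUP98 fRIP libraries (orange) and the 3 libraries of input set 2 (grey), with 1 marker shape per replicate number. From ABL1 down to SOCS3 every orange marker lies right of every grey one, RAE1 overlaps, and from MT-CO1 down to RPPH1 every orange marker lies left.

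Immediate early mRNAs, which encode short-lived transcription factors and signalling brakes, were the list with the highest median. Of 18 tested, 11 rose and none fell, against 9.17% higher over all genes, and the median log2 change was 0.60 with pair medians of 0.54, 0.46 and 0.76. MYC, a growth-promoting transcription factor, had 90.3, 116 and 141 FPKM in the NUP98 libraries and 61.5, 73.6 and 81.5 FPKM in the inputs, a log2 change of 0.66 ± 0.07. IER3, a stress-induced survival gene, rose by 0.86 ± 0.08, BTG2, which slows proliferation, by 0.84 ± 0.11, and MCL1, which blocks apoptosis, by 0.31 ± 0.06. The list median was 0.57 against input set 1 and 0.78 against input set 3, where 8 and 5 of its genes rose and none fell. Without the replicate block 3 of the 18 were called, and without replicate 1 7 of 17.

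Among regulators of blood cells 6 of 16 rose, 37.5% against 9.17% over all genes, and none fell, with a median of 0.17. GATA2, a transcription factor of blood progenitors, was at 71.3 ± 12.7 FPKM in the NUP98 libraries and 41.8 ± 10.3 FPKM in the inputs (SD, n = 3) with no overlap, a log2 change of 0.77 ± 0.09. ZFPM1, the partner of GATA1, rose by 0.87 ± 0.12, while MYB was at 152 and 135 FPKM and did not pass the test (adjusted limma p of 0.11). Without the block limma called none of the 16, and without replicate 1 2. Of 17 mRNAs that p53 induces, 6 rose, 35.3% against 9.17% over all genes, and none fell, with a median of 0.26. Limma called none of the 17 without the block, none against input set 3 and 1 without replicate 1. MDM2, which degrades p53, rose by 0.39 ± 0.08 and PMAIP1, a trigger of apoptosis, by 0.71 ± 0.14. SESN2, a stress sensor, rose by 0.69 ± 0.08 within pairs, yet its levels of 99.6, 121 and 18.2 FPKM overlapped the inputs at 67.2, 66.0 and 11.1 FPKM. CCNG1, a p53-induced cyclin, was at 95.4 and 92.2 FPKM. K562 cells lack functional p53, and the median of the list was 0.10 against input set 1 and 0.00 against input set 3. Of 11 genes of the HOX, MEIS1 and PBX3 list, which NUP98 fusions raise in leukemia, 2 rose, 18.2% against 9.17% over all genes, 1 fell and the median was 0.20. Limma called none of them without the block, without replicate 1, against input set 3 or against all 9 inputs. HOXB9 rose by 0.39 ± 0.07 with overlapping groups.

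Components of the nuclear pore and of transport were, apart from NUP98, close to the body of genes. Of 30 nucleoporin mRNAs tested 3 rose and 6 fell, shares near the 9.17% and 17.6% over all genes, with a median of -0.10, and NUP98 was the only one whose NUP98 libraries all lay above the inputs. TPR, which forms the nuclear basket, had 68.8, 73.9 and 74.0 FPKM in the NUP98 libraries and 101, 114 and 115 FPKM in the inputs, a log2 change of -0.60 ± 0.06. NUP214, the partner of NUP98 on the cytoplasmic face, was at 138 ± 26.3 and 176 ± 65.4 FPKM (SD, n = 3) and did not pass. Of 18 mRNAs of NUP98 partners 3 rose and 2 fell, and these shares and those of the next lists lay between 10.0% and 16.7% higher and 11.1% and 13.3% lower. Export receptor XPO1 was at 219 and 229 FPKM and import receptor KPNB1 at 274 and 294 FPKM, and neither was called. FZR1, an activator of the anaphase-promoting complex, rose by 0.55 ± 0.11. Of 24 mRNA export factors 4 rose and 3 fell: DDX39B and ALYREF, which load the export machinery on mRNA, differed by -0.05 ± 0.07 and 0.05 ± 0.06, ENY2 fell by 0.50 on the log2 scale and NXT1 rose by 0.50 ± 0.12. Of 30 transport receptors and Ran factors 3 rose and 4 fell, with XPO5, the exporter of microRNA precursors, lower by -0.35 ± 0.08, KPNA5 higher by 0.41 ± 0.11, and RAN itself not called at -0.23 ± 0.08. Without the block 1 nucleoporin rose and 1 fell, and none of the export or transport factors was called. Of the NUP98 partners none rose and 1 fell without it, and FZR1 was not called (adjusted limma p of 0.108).

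Splicing regulators moved in both directions. Over all genes 9.17% were higher and 17.6% lower. Of 10 SR protein mRNAs 3 rose and 2 fell. SRSF5 had 172, 171 and 177 FPKM in the NUP98 libraries and 99.5, 109 and 121 FPKM in the inputs, a log2 change of 0.66 ± 0.07, and SRSF6 rose by 0.45 ± 0.08, while SRSF1 was at 263 and 245 FPKM and was not called. Of 22 hnRNP mRNAs 5 rose and 3 fell (22.7% and 13.6%), with HNRNPA0 higher by 0.90 ± 0.12, HNRNPD lower by -0.74 ± 0.08, and HNRNPA2B1 not called at 0.22 ± 0.07. Among 387 zinc finger genes of the ZNF series 73 rose and 21 fell (18.9% and 5.43%), with a median of 0.14. Against input set 1 the median was -0.06, with 50 higher and 65 lower. ZNF500 rose by 0.93 ± 0.18 and ZNF146 by 0.35 ± 0.08, while ZNF493 and ZNF207 fell by 1.10 and 0.51 on the log2 scale. Of 54 centrosomal CEP and kinesin KIF genes 7 rose and 2 fell (13.0% and 3.70%), among them CEP72 with 0.47 ± 0.09, while KIF2C was at 111 and 113 FPKM. Of 22 heat shock and ER chaperone mRNAs 2 rose and 8 fell (9.09% and 36.4%). CANX, a chaperone of the endoplasmic reticulum membrane, fell from 433 ± 21.8 to 272 ± 58.2 FPKM (SD, n = 3). HSPA8 fell within pairs by 0.40 on the log2 scale, with 221, 331 and 898 FPKM against 308, 461 and 1062 FPKM, and was higher than input set 1 and input set 3 (0.32 and 0.43). DNAJB1, a co-chaperone, rose by 0.48 ± 0.08. Without the block limma called none of the chaperones and none of the CEP and KIF genes, 5 ZNF genes higher and 2 lower, 1 SR mRNA higher, and 1 hnRNP mRNA higher and 1 lower.

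Short, abundant housekeeping mRNAs were lower than in input set 2. Of 79 mRNAs of cytosolic ribosomal proteins 68 fell and none rose, against 17.6% lower over all genes, with a median of -0.59 and pair medians of -0.57, -0.73 and -0.43. RPL39 had 265, 174 and 240 FPKM in the NUP98 libraries and 516, 443 and 491 FPKM in the inputs, a log2 change of -1.11 ± 0.09. RPL38 fell by 1.03 and RPL11 by 0.50 on the log2 scale, while RPS3 was at 1336 and 1367 FPKM and was not called. Of 17 translation factors whose mRNAs start with the same terminal oligopyrimidine tract, 12 fell and 1 rose. None was called in either direction without the block or without replicate 1. Against input set 1 1 was lower, and against input set 3 2 were. EEF1A1 fell by 0.35 and GNB2L1, the ribosomal scaffold RACK1, by 0.53 on the log2 scale, while EIF4A2, an RNA helicase of translation initiation, rose by 0.59 ± 0.08. The ribosomal list was lower against each input set, with medians of -0.22 for set 1 and -0.59 for set 3, but only 9 and 31 of its genes were then called, and against set 2 10 were called without the block and 7 without replicate 1.

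For other short mRNAs the direction depended on the input. Of 79 nuclear mRNAs of the respiratory chain 46 fell, 58.2% against 17.6% over all genes, and 1 rose, with COX7C lower at 273 ± 33.5 against 534 ± 23.8 FPKM (SD, n = 3) and ATP5B not called at 754 and 861 FPKM. Of 31 replication-dependent histone genes 24 fell, 77.4%, and none rose, with HIST1H1C lower by -0.50 ± 0.10 and HIST2H2AB by -1.34 ± 0.08. Of 37 proteasome mRNAs 15 fell, 40.5% against 17.6% over all genes, and none rose, with PSMA4 lower by -0.36 ± 0.06 and PSMB1 not called. Of 75 mitochondrial ribosomal proteins 16 fell, 21.3% and near the 17.6% over all genes, and 2 rose, with MRPL52 lower by -0.50 ± 0.07 and MRPL20 not called. Against input set 1 the medians of these 4 lists were 0.23, 0.56, 0.39 and 0.50, and 13, 19, 8 and 23 of their genes were called higher. Against input set 3 they were -0.39, -1.02, -0.17 and -0.10, with 18, 25, 0 and 2 genes lower. Without the block 9, 12, 0 and 0 genes of the 4 lists were lower, and without replicate 1 10, 9, 0 and 2. Of 7 globin genes 6 fell, 85.7%, with HBG2, a fetal globin, at 683 ± 21.8 against 969 ± 136 FPKM and HBE1, the embryonic one, at 399 ± 91.6 against 500.0 ± 147 FPKM (SD, n = 3), and the globin median was 0.09 against input set 1. Of the globins 1 was called without the block and none without replicate 1.

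**Figure D3:**
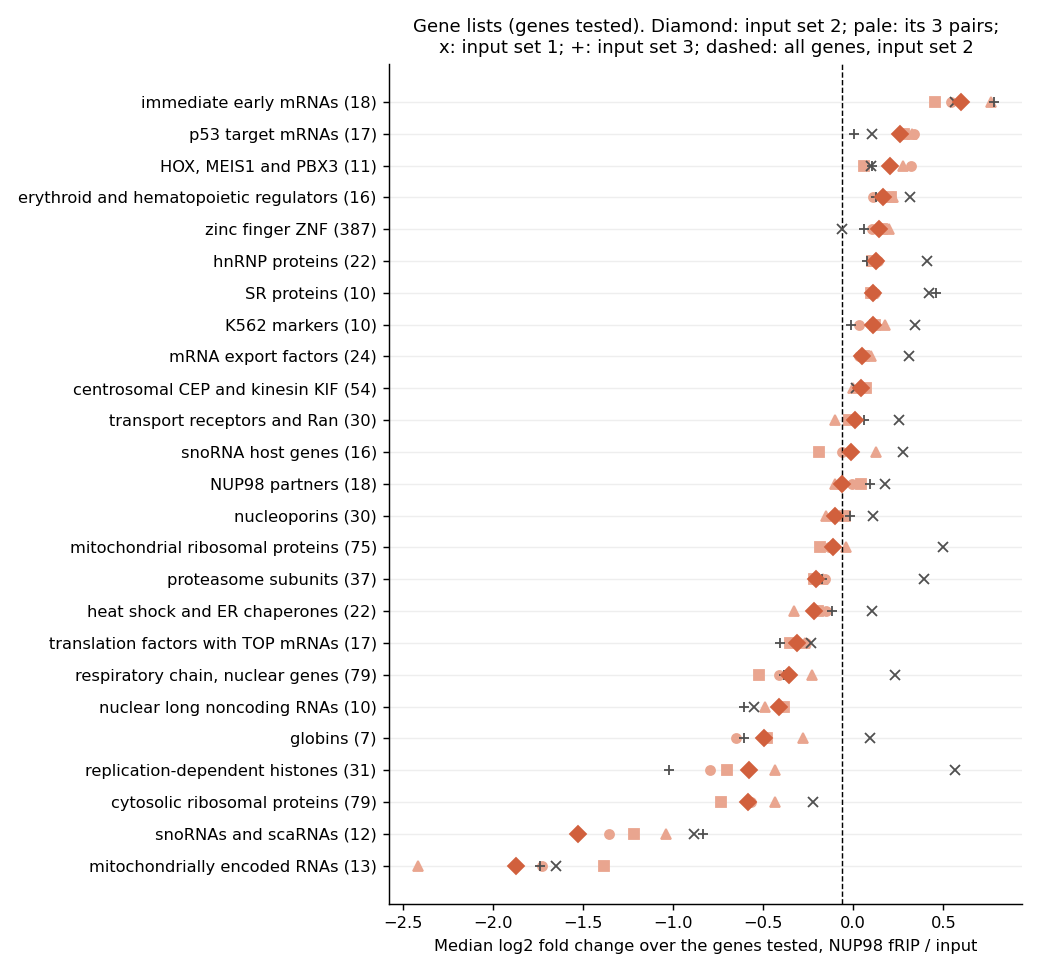
Median log2 fold change over the tested genes of each list with 5 or more (horizontal axis; number tested in brackets on the vertical axis): orange diamonds for input set 2, pale markers for its 3 library pairs, x for input set 1 and + for input set 3, with a dashed line at the all-gene median of -0.06. Immediate early mRNAs lie at the top at 0.60 and mitochondrially encoded RNAs at the bottom at -1.87 whichever input is used, while histones range from -1.02 to 0.56.

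RNAs made in mitochondria were lower throughout. All 13 mRNAs of the mitochondrial genome fell by over 2-fold, against 5.80% of all genes, with a median log2 change of -1.87, pair medians of -1.72, -1.39 and -2.41, and all NUP98 libraries below all inputs. MT-CO3, a subunit of cytochrome oxidase, had 563, 525 and 304 FPKM in the NUP98 libraries and 1970, 1646 and 1792 FPKM in the inputs, 4.01-fold lower with an SE of 0.18 on the log2 scale and an adjusted limma p of 0.0083. MT-CO1 of the same enzyme, MT-ND1 and MT-ND2 of complex I and MT-ATP6 of the ATP synthase fell by 1.96, 2.00, 2.14 and 2.04 on the log2 scale. The 13 genes were also called lower without the block and against either of the other input sets (medians -1.65 and -1.74). Between 28.2% and 66.7% of the 31-base words of these 5 mRNAs also occur in other annotated transcripts, largely nuclear copies of mitochondrial DNA.

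Several small structured RNAs were lower too. RPPH1, the RNA of RNase P, had 459, 401 and 233 FPKM in the NUP98 libraries and 2721, 2472 and 2285 FPKM in the inputs, a log2 change of -2.82 ± 0.16. RMRP, the RNA of RNase MRP, fell from 2488 to 717 FPKM and RN7SL1, the RNA of the signal recognition particle, from 221 to 30.7 FPKM, log2 changes of -1.81 ± 0.11 and -2.82 ± 0.09. RN7SL1 has many near copies in the genome, so its level is uncertain. The Cajal body RNAs SCARNA2 and SCARNA9 fell by 1.85 and 2.34 on the log2 scale, among 8 of 12 tested snoRNAs and scaRNAs that fell, 66.7% against 17.6% over all genes. Of the 12, 4 were lower without the block, 4 against input set 3 and 5 without replicate 1. Another 18 genes of that list did not pass the filter, and FPKM of very short genes rests on a poorly known effective length. MALAT1, an abundant lncRNA of nuclear speckles, had 1533, 1490 and 1003 FPKM in the NUP98 libraries and 3717, 3355 and 3230 FPKM in the inputs, a log2 change of -1.38 ± 0.14, and FTX fell by 0.99 on the log2 scale. LINC00657, also known as NORAD and largely cytoplasmic, went up, with 130, 101 and 179 FPKM against 68.7, 62.3 and 74.2 FPKM, a log2 change of 0.95 ± 0.11. Of 10 genes of this list 5 fell, 50.0% against 17.6% over all genes, and 1 rose. Without the block 3 were lower and without replicate 1 none. Among 16 hosts of snoRNAs 3 rose and 3 fell, 18.8% each: SNHG15 rose by 0.74 ± 0.06, SNHG3 fell by 0.70 on the log2 scale, and GAS5 was at 491 and 535 FPKM and was not called. Without the block 1 host was higher and 0 lower, and without replicate 1 the counts were 2 and 0.

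The other genes at the lower end by the naming rule were low in level. ANKRD10-IT1, a transcript from an intron of ANKRD10, fell from 22.7 ± 4.00 to 3.95 ± 3.38 FPKM (SD, n = 3). The lncRNAs AC002480.4 and RP11-769O8.2 fell by 2.33 and 2.07 on the log2 scale and AL590452.1 by 2.07. AC002480.4 lies antisense to STEAP1B, AL590452.1 to PDE4DIP and RP11-769O8.2 to YES1, and 94.9% of the 31-base words of RP11-769O8.2 occur in other annotated genes. OR52D1, an olfactory receptor gene, had 4.85, 8.61 and 8.35 FPKM in the NUP98 libraries and 20.6, 29.8 and 64.7 FPKM in the inputs. It lies antisense within the long annotated transcripts of HBE1 and HBG2.

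Of 55796 isoforms tested, limma with the block called 16 higher (0.0287%) and 23 lower (0.0412%), while 5223 and 10035 passed an unadjusted p of 0.05 and the fit without the block called 104 and 210. The classes are therefore described by the position of the libraries. The NUP98 libraries all lay above the inputs for 8.88% of isoforms and all below for 20.2%. Of 10219 isoforms annotated as retained introns 2.80% lay above and 37.4% below, with a median log2 change of -0.49 as deposited and -0.37 centred. An isoform could pass the filter through the inputs alone or the NUP98 libraries alone. No split of the isoform classes by input level is given here. Of 25826 coding isoforms 11.6% lay above and 12.1% below, and of 4168 isoforms marked for nonsense-mediated decay 13.5% lay above and 9.05% below, with medians of 0.00 and 0.08 as deposited and 0.12 and 0.21 centred. Beyond the genes above, the named isoforms were GSE1-203, a coding isoform of GSE1, at 14.6 against 1.35 FPKM, and at the lower end the MIR663A host transcripts MIR663AHG-214 and MIR663AHG-222 (log2 changes of -1.70 ± 0.11 and -1.59 ± 0.09), RPL38-202 and RPL37A-202 (-1.08 ± 0.07 and -1.06 ± 0.06). Adjusted limma p-values of the named isoforms called ran from 0.019 to 0.0499, close to the threshold. After centring 8 of the 12 were no longer called (0.054 to 0.074), NUP98-205, BCR-202 and GSE1-203 among them.

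Within mRNAs the correlation of the change was higher with length and base composition than with exon number. Across 11306 mRNAs the Spearman correlation of the log2 change with transcript length was 0.213 ± 0.058 (mean and SD over 3 library pairs), with GC content 0.163 ± 0.079 and with exon number 0.040 ± 0.094. With input level it was -0.144 ± 0.024 across 11331 mRNAs, a value that shares its input libraries with the change. With all 9 inputs these values were 0.122 ± 0.086 for length, 0.108 ± 0.074 for GC content, -0.012 ± 0.086 for exon number and -0.053 ± 0.095 for input level. With a minimum of 5 FPKM the value for input level was -0.271 ± 0.033. Genes are not independent replicates, and these correlations are descriptions. The mRNAs of at least 5 FPKM were ranked by each feature and divided into 5 bins of equal size. Of the 1803 mRNAs in the shortest bin 27.8% were lower and 5.88% higher, against 7.10% and 17.5% in the longest bin. In the bin with the highest GC content 22.4% were higher and 8.15% lower, and in the bin with the lowest 7.04% were higher and 14.8% lower. GC content went with the change among 2485 lncRNAs too, at 0.280 ± 0.037. Among all words of 6 bases, the G-rich GAGGGG had the highest correlation of its density with the change over 9000 mRNAs, at 0.196 ± 0.044. The lowest was that of AAUAAA at -0.160 ± 0.076, which is the core of the polyadenylation signal. These words were read in 1 transcript per gene, the one with the highest input level, and their part in the result apart from GC content and length was not tested.

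**Figure D4:**
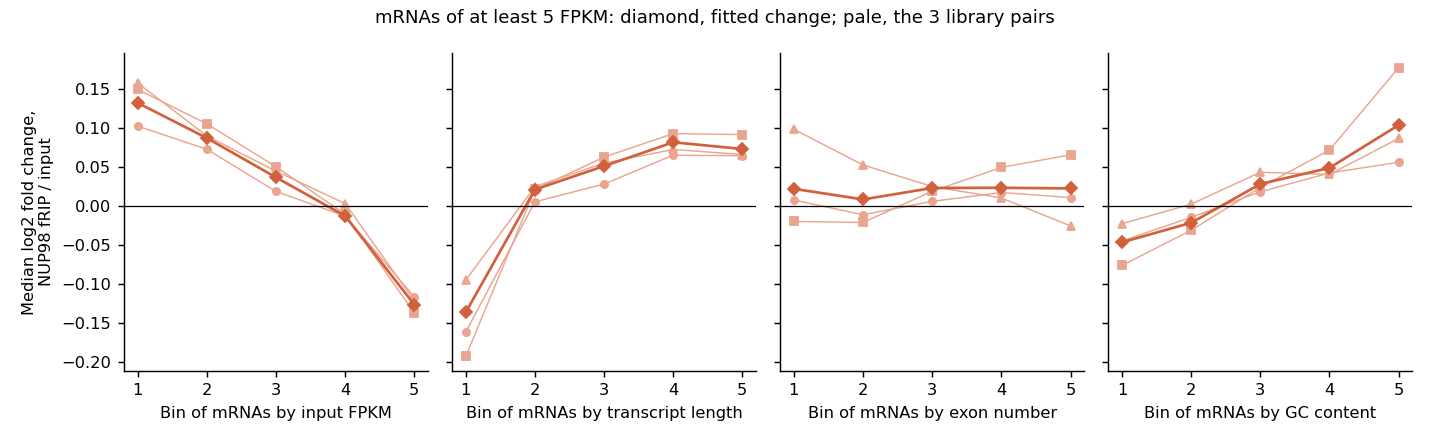
Median log2 fold change of NUP98 fRIP over input (vertical axis) in 5 bins of equal size of mRNAs of at least 5 FPKM by input FPKM, transcript length, exon number and GC content (horizontal axes, lowest bin first), with orange diamonds for the fitted change and pale markers for the 3 library pairs. The shortest bin lies at -0.14 and the longest at 0.07, the lowest GC bin at -0.05 and the highest at 0.10, and the exon bins lie between 0.01 and 0.02.

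The NUP98 fRIP was then set directly against the fRIPs of WDR5 (a subunit of histone methyltransferase complexes), PCAF (a histone acetyltransferase) and CHD1 (a chromatin remodeller), and against the mean of the other 23 proteins, with no input library in the contrast. Against WDR5 1640 genes were higher (10.6%) and 2632 lower (17.0%), against PCAF 2230 (14.9%) and 2478 (16.6%), and against CHD1 1423 (8.44%) and 3280 (19.5%). After centring the splits were 1959 and 2160 for WDR5, 1316 and 3204 for PCAF, and 1681 and 2641 for CHD1. Against the mean of the others 1452 were higher (5.72%) and 5877 lower (23.1%) as deposited and 7914 and 1186 centred, so the direction of small differences there depends on the scale. Genes called the same way in all of these contrasts and against input, on both scales, numbered 31 higher and 2 lower. The 3 contrasts with single proteins were fitted with the replicate block, although whether numbers pair libraries was checked only for NUP98 and input. Without the block 110 genes were higher and 438 lower than in WDR5 fRIP, 96 and 199 than in PCAF fRIP and 82 and 278 than in CHD1 fRIP, and 8 of the 31 genes and 1 of the 2 were also called in all 3.

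These 6 genes of the upper end were higher in NUP98 fRIP than in each of these, whichever scale was used. Without the block they were called in these 3 contrasts too, except NUP98 mRNA against PCAF (adjusted limma p of 0.055). NUP98 mRNA was 1.31 ± 0.13 log2 units above the mean of the other proteins (adjusted limma p of 3.9e-11) and 1.67, 1.04 and 1.17 above WDR5, PCAF and CHD1. The SE and p against that mean rest on the spread of libraries within each protein or input set. They do not measure the spread among proteins. ABL1 was 2.39 ± 0.10 above the mean, BCR 1.39 ± 0.14, EGFL7 2.36 ± 0.16, ARAP3 2.07 ± 0.24 and ARAP1 1.84 ± 0.17. The NUP98 fRIP had the highest mean of the 24 proteins for ARAP1, ARAP3 and EGFL7. For ARAP1 no library of another protein or of input reached the lowest NUP98 library, the nearest being an EZH2 library at 77.2 FPKM. For EGFL7 only 1 library, of CHD4, at 290 FPKM, lay above the lowest NUP98 library, and for ARAP3 2 libraries did, the higher of SUZ12 at 40.6 FPKM. For the other genes NUP98 was not alone at the top. EZH2, the methyltransferase of Polycomb, had a mean of 412 FPKM of ABL1 and 554 FPKM of BCR against 347 and 423 FPKM in NUP98 fRIP, and the ranges of the libraries overlapped. NUP98 mRNA was at 249 FPKM in the fRIP of ADAR, an RNA editing enzyme, and at 222 FPKM in that of SUZ12, next to 241 FPKM in NUP98 fRIP, and the ranges of these 3 overlapped. SEPHS2 was at 223 FPKM in EZH2 fRIP and was not called between NUP98 and WDR5 (a log2 difference of 0.01 ± 0.07, adjusted limma p of 0.94).

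**Figure D5:**
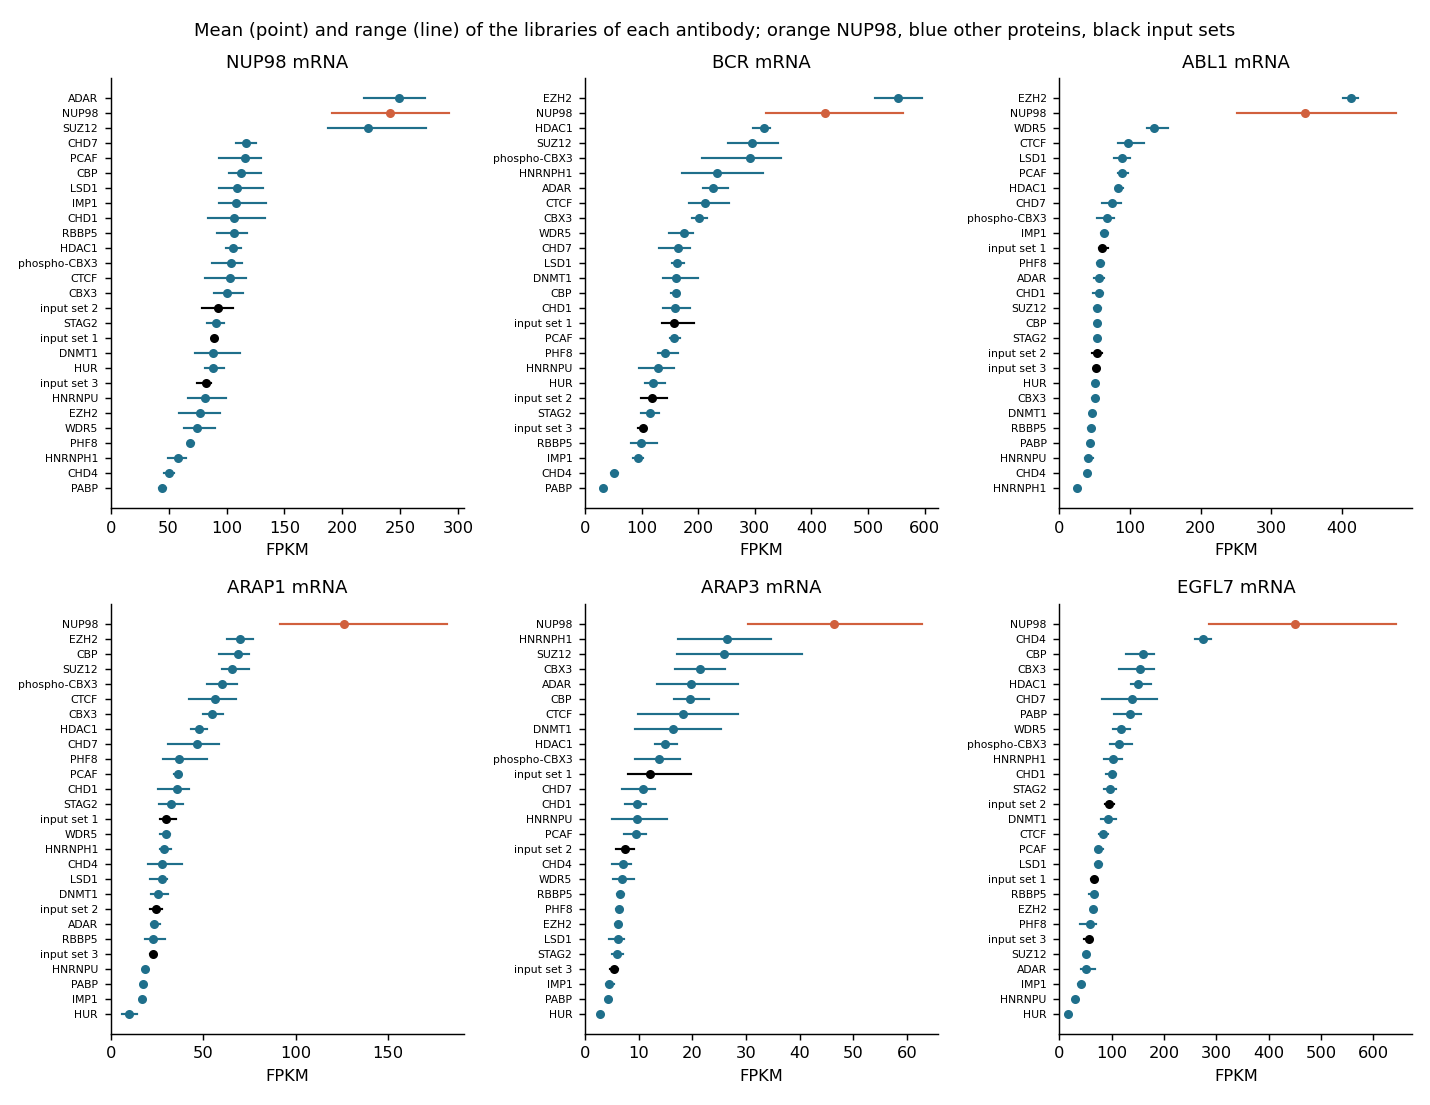
FPKM of 6 mRNAs (horizontal axes) in each of the 24 fRIPs and the 3 input sets (vertical axes, sorted by mean), with points for means and lines from the lowest to the highest library, orange for NUP98, blue for other proteins and black for input. NUP98 is at the top for ARAP1, ARAP3 and EGFL7, second to EZH2 for BCR and ABL1, and within the range of ADAR and SUZ12 for its own mRNA.

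The mitochondrially encoded and ribosomal protein lists, low against input, were not lower than the mean of the other proteins. Counts against WDR5, PCAF and CHD1 in the list values that follow rest on the block. Of 3 minor spliceosomal snRNAs 2 fell against input, with a median of -3.98, while 1 was called without the block and none against input set 3, where the median was -2.16. Their median was -4.04 against WDR5, -3.12 against CHD1, -2.38 against the mean of the others and -1.16 against PCAF, where 1 was higher and 1 lower, none of them called without the block. Of 12 snoRNAs and scaRNAs 8 were lower than in CHD1 fRIP, 4 without the block, with a median of -2.08, and 6 of 18 were lower than the mean of the others as deposited and 3 centred. Against WDR5 2 were higher and 3 lower, 1 and 0 without the block, and against PCAF 1 and 2, 0 and 1 without it. Of the 4 Pol III RNAs 3 were lower than in CHD1 fRIP and 2 higher than in WDR5 fRIP, and 2 and none without the block. The 13 mitochondrially encoded RNAs had a median of -0.06 against the mean of the other 23 fRIPs as deposited and 0.36 centred, with 0 called lower on either scale, and all 13 were higher than in the WDR5 and PCAF fRIPs (medians 1.66 and 2.56), with or without the block, and none was called against CHD1. Cytosolic ribosomal protein mRNAs were higher than the mean of the others, 61 of 79 as deposited and 79 centred, with medians of 0.44 and 0.86. Over all genes 1452 of 25403 (5.72%) were higher as deposited and 7914 centred, with medians of -0.18 and 0.23. Replication-dependent histone mRNAs were lower than in PCAF and CHD1 fRIP, 29 and 30 of 31, against 16.6% and 19.5% of all genes, and 22 and 9 without the block, and differed by a median of 0.01 from WDR5. Of 16 snoRNA hosts 15 were higher than in PCAF fRIP, against 14.9% of all genes, with a median of 0.91, and 6 were without the block. Immediate early mRNAs were higher than the mean of the others in 8 of 18 as deposited and 13 centred, none lower, and 8 of 18 were lower than in WDR5 fRIP, against 17.0% of all genes, and 3 without the block. Against PCAF 7 of them were higher and 0 lower, and against CHD1 7 and 2. Over all genes 14.9% and 8.44% were higher, and without the block 0 and 1 of the list were. Of 30 nucleoporin mRNAs 13 were higher than in WDR5 fRIP, against 10.6% of all genes, and 17 and 15 were lower than in PCAF and CHD1 fRIP, against 16.6% and 19.5%. Without the block these counts fell to 1, 1 and 2.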

How the data were processed

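RNA of 3 NUP98 fRIP libraries and 9 input libraries of K562 cells was compared, and 67 fRIP libraries of 23 other proteins were used for direct contrasts. The authors aligned paired reads with TopHat to hg19 and estimated FPKM per gene and isoform of GENCODE 18 with Cuffdiff 2 and Cuffnorm, and the deposited FPKM tables were used. Whether fragments were counted by strand is not given in the sources used here. Columns of the authors' own comparisons hold fold changes and p-values and were not used, except the pooled input value that identified the input set.

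Genes with at least 1 FPKM in 2 of 6 libraries were fitted on log2(FPKM + 1) with limma 3.58.1 in R 4.3.3 (intensity trend, replicate number as a block, two-sided, Benjamini-Hochberg adjusted p under 0.05). The fit was also run on simulated libraries, and no result here rests on that run. NUP98 and input libraries of the same number deviated together from their group means (r of 0.37, 0.19 and 0.55). For different numbers r was -0.45 to 0.21, and the block rests on these values. The pairing of numbers 1 and 2 is weakly shown, as NUP98 replicate 2 had an r of 0.19 with inputs 1 and 2 alike. The contrast with the mean of the other 23 proteins used all 79 libraries with no block. Depth was read from the smallest steps in FPKM and is approximate.

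Named genes were NUP98 and RAE1, the 12 highest and 12 lowest mRNAs or lncRNAs of at least 5 FPKM and 300 bases that were called, did not overlap and kept their direction after centring, for each list the 2 members highest in level and the 2 with the largest change, and the 6 highest and 6 lowest isoforms. The members and lists were chosen with earlier results of these data known. Transcript length, exons, GC content, types and shared 31-base words came from GENCODE 44 lifted to hg19, with Python 3.11.15, numpy 2.4.6, scipy 1.17.1 and pandas 2.3.3. Alternatives were centring, median-ratio scaling, no block, other inputs, a spread from all libraries, pseudocounts of 0.1 and 0.5, other filters and leaving out each replicate.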

Additional observations from a re-analysis of the deposited data

Results flagged for a closer look

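The following 8 genes were flagged among the named genes at the upper end, which were picked as high against input in the same NUP98 libraries. In limma on all 79 libraries, with no input in the contrast, they were higher than the mean of the other proteins. They were also higher than in the WDR5, PCAF and CHD1 fRIPs in limma with the block. Other named genes passed the first of these tests too, among them SEPHS2 at 1.16 and SCARNA9 at -1.79. That test does not measure the spread among proteins. Against the mean of the other 23 fRIPs the log2 difference was 1.31 for NUP98, 2.39 for ABL1, 1.39 for BCR, 2.07 for ARAP3, 1.84 for ARAP1, 2.01 for ARAP1-AS1, 2.36 for EGFL7 and 0.88 for NFKBID. ARAP1-AS1 shares 93.0% of its 31-base words with ARAP1 and is not a separate result. ABL1, BCR and NUP98 mRNA were as high or higher in the fRIP of at least 1 other protein, EZH2 for ABL1 and BCR and ADAR for NUP98. NFKBID, at a mean of 10.4 FPKM, ranked 5 of 24, below CBP at 16.6, HNRNPH1 at 15.1, CBX3 at 13.2 and SUZ12 at 12.2 FPKM, and 21 other libraries lay above the lowest NUP98 library.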

How the results depend on the processing

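Without the replicate block 116 genes were higher and 895 lower, 19 of the former past 2-fold, and after centring as well, an alternative chosen after seeing the data, 92 and 1019, with 18 past 2-fold. Without the block 36 of 92 named genes lost their call and none changed direction. Against input set 3 the counts were 383 and 1231, and with the spread of all 79 libraries 641 and 1864. Higher genes past 2-fold numbered 59 against all 9 inputs, 277 against set 1, 81 against set 3 and 62 with a pseudocount of 0.1, and lower ones 2560 against set 1. With a minimum of 5 FPKM 1727 genes were lower, 307 past 2-fold. With every gene above 0 limma called 0 higher and 6 lower, all 6 past 2-fold, while 2554 higher and 6262 lower passed an unadjusted p of 0.05. Leaving out 1 replicate at a time gave 260 to 924 higher genes and 676 to 2060 lower, with 519 to 1095 lower past 2-fold, and the lowest of these came without replicate 1. Isoform calls were 4 and 8 centred, 104 and 210 without the block, 1 and 7 with a pseudocount of 0.1, and 0 to 1 and 1 to 10 with 1 replicate left out. In the 2 fits with no isoform higher, 4050 and 3959 were higher at an unadjusted p of 0.05. Calls against WDR5, PCAF and CHD1 numbered 548, 295 and 360 without the block, and with 1 replicate left out 2089 to 4306, 2078 to 4699 and 1914 to 3244. Against the other 23 proteins centring gave 7914 higher and 1186 lower, and leaving out 1 NUP98 library 399 to 1367 and 2793 to 4648, lowest without replicate 3.

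Against input set 1 the log2 change turned to 0.30 for ENY2, 0.25 for MRPL52, 0.26 for HIST1H1C, 0.44 for HIST2H2AB, 0.18 for PSMA4, 0.35 for HBG2, 0.32 for HSPA8 and 0.31 for CD3D, and HIST2H2AB was then called higher. Against set 3 it turned to -0.16 for HOXB9, -0.41 for SESN2 and 0.43 for HSPA8, and against all 9 inputs to 0.12 for HSPA8. The cause was not tested. Centring, median-ratio scaling and both pseudocounts reversed no call among the 92 named genes. RAE1, which was not called, went from 0.01 as deposited to -0.02 centred. The NUP98 libraries hold fewer fragments than the inputs, which limits values of low genes and isoforms.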

Other observations

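AC092299.8, a gene with no match in the newer annotation and chosen here after its values were seen, had 43.6, 35.3 and 29.5 FPKM in the NUP98 libraries and 2.28, 2.81 and 2.16 FPKM in the inputs, a log2 change of 3.43 ± 0.13. The ADAR fRIP had a higher mean of 132 FPKM. SOCS1, a feedback inhibitor related to SOCS3, and the stress gene DDIT4, chosen the same way, rose by 1.08 and 0.97 on the log2 scale. YES1, a tyrosine kinase, rose by 0.46 ± 0.06 while RP11-769O8.2 on its other strand fell by 2.07. The olfactory receptor genes OR51Q1 and OR51M1, which like OR52D1 lie within the annotated span of HBE1 and HBG2, fell by 1.91 and 1.86 on the log2 scale.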
